A study of Danio rerio with 8 samples.

Results

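The antioxidant and glutathione genes of zebrafish rods were examined as 59 genes chosen by symbol from an annotated table, with no expression value in the symbol rule. They are the glutathione peroxidases (gpx), peroxiredoxins (prdx), superoxide dismutases (sod), catalase (cat), thioredoxins and their relatives (txn, nxnl), glutathione transferases (gst), the enzymes that make and reduce glutathione (gclc, gclm, gss, gsr), glutaredoxins (glrx), methionine sulfoxide reductases (msr), and the Nrf2 pathway (nfe2l, keap1, hmox, sqstm1). The symbols were matched among the 13325 genes of the annotated table, which does not hold every one of the 33737 gene IDs counted, so a gene of these families outside that table is not among the 59. How genes entered that table was not given in the sources used here, and it may rest on expression. Of 22 gene IDs of these families outside it, 16 had at most 10 counts in every library. HMOX1, given below, also lies outside it. The shares of all genes tested, given below, include genes outside that table. Of the 59 genes, 56 passed the filter on low counts and were tested. The genes gstt1b, gclm and TXNRD2 (1 of 2) did not pass it.

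RNA-seq was carried out on GFP+ cells and GFP- cells sorted from the same retinas. GFP+ cells are rods of the xops:eGFP line, where eGFP is made under a rod opsin promoter of Xenopus, and GFP- cells are the rest of the retina, a mixture of cones, other neurons, glia and further types. Every fish carried the transgene and was dark-adapted, trypsin and papain were used to dissociate both of its retinas, and FACS then gave 1 GFP+ and 1 GFP- library from each of 4 fish. The fish are called 1, 2, 2_2 and 5_2 after the sample titles, in which the suffix _2 is not explained, and values are given in that order throughout; age and sex of the fish were not used here, and whether the suffix goes with sex, which the labels do not give, was not tested.

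Photoreceptors consume much oxygen, are exposed to light and hold membranes rich in polyunsaturated lipids, and their mitochondria are a source of superoxide. Superoxide dismutases turn superoxide into hydrogen peroxide, which catalase, peroxiredoxins and glutathione peroxidases remove. Peroxiredoxins are recharged by thioredoxin and thioredoxin reductase, and glutathione peroxidases by glutathione and glutathione reductase, with NADPH as the final electron donor. The transcription factor Nrf2, held back by Keap1, switches on many genes of these systems.

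The libraries held 1722055 to 2206479 counts on genes in GFP+ cells and 1865121 to 2514874 in GFP- cells, and the floor of 3 counts, up to which a count of 0 leaves the level open, amounted to 0.99 to 2.14 CPM in GFP+ libraries and 0.945 to 3.13 CPM in GFP- libraries. CPM are counts per 1000000 after TMM scaling, and such limits cover counting error only. Mitochondrially encoded genes took 12.4% to 39.3% of those counts in GFP+ libraries and 25.0% to 66.1% in GFP- libraries, with the highest share in the GFP- library of fish 2_2. All 8 rod markers were higher in GFP+ cells at a false discovery rate (FDR, the Benjamini-Hochberg adjusted p over all 12564 genes tested) under 0.01, with summed levels of 34241 to 62672 CPM in GFP+ libraries and 2675 to 12632 CPM in GFP- libraries. The GFP- population therefore held rod RNA, most of it by this sum in fish 2_2 and 5_2, at 12632 and 10763 CPM, against 2675 and 4073 CPM in fish 1 and 2. All 9 cone markers tested were lower in GFP+ cells, with sums of 5324 to 8066 CPM in GFP+ libraries and 21226 to 45613 CPM in GFP- libraries. Microglia and leukocyte markers were lower in GFP+ cells for 7 of 8 tested, with sums of 418 to 510.2 CPM in GFP+ libraries and 1409 to 2596 CPM in GFP- libraries. Most of the GFP+ sum was apoeb, the marker that did not pass, with 419, 300, 397 and 478 CPM in GFP+ libraries. The markers mpeg1 and LCP1 were at 0 in every GFP+ library, but LCP1 had at most 5 counts in any GFP- library. Erythrocyte markers were lower for 3 of 5 tested, with sums of 35.0 to 132 CPM in GFP+ libraries and 205 to 403 CPM in GFP- libraries, and 1 hbaa1 ID and alas2 were at 0 in every GFP+ library. Nearly all of the GFP+ sum was cahz, with 125, 35.0, 89.3 and 92.8 CPM in GFP+ libraries. The gene cahz is also among the Müller glia markers, so this sum does not measure erythrocyte RNA alone. None of 6 Müller glia markers passed an FDR of 0.01, with sums of 272 to 531 CPM in GFP+ libraries and 511 to 665 CPM in GFP- libraries, while 2 of 4 bipolar cell markers (sums of 141 to 171 CPM in GFP+ libraries and 266 to 614 CPM in GFP- libraries) and 3 of 8 markers of amacrine, horizontal and ganglion cells (184 to 284 CPM in GFP+ libraries and 492 to 569.9 CPM in GFP- libraries) were lower. The part of these cell types, and of the mitochondrial share, in the differences described next was not tested, and in such bulk samples fewer cells of a type and less RNA per cell cannot be told apart.

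Most antioxidant and glutathione genes had levels in rods that could not be separated from those in the other retinal cells. At an FDR under 0.01, the threshold of the study, 1 of the 56 tested was higher in GFP+ cells, gpx4b, where 3.13% of all genes tested passed in that direction. In the other direction 1 of the 56, txnipa, was lower in GFP+ cells, where 5.68% of all genes tested passed. At an FDR under 0.05 the count was 2 higher, with nxnl2 added, beside 5.6% of all genes, and 4 lower, with sqstm1, gsr and gpx1a added, beside 9.57% of all genes. None of these shares of the 56 lay above that of all genes. The likelihood ratio test of edgeR called more genes at an FDR under 0.01. It gave 2 of the 56 higher and 5 lower, beside 571 and 1112 of all 12564 genes. The fold change was positive for 23 and negative for 33 of the 56, with a median log2 fold change of -0.18 for the 56 and -0.02 for all genes tested. The 59 genes together summed to 2102 ± 269 CPM in GFP+ cells and 2205 ± 121 CPM in GFP- cells (SD, n = 4 fish each). The sum was lower in GFP+ cells in 3 of 4 fish. The gene gstp1 alone, given below and not called, made up 539 CPM of the mean sum in GFP+ cells and 634 CPM in GFP- cells. As a share of counts outside mitochondrial genes, the 59 took 0.354%, 0.323%, 0.252% and 0.347% in GFP+ libraries and 0.396%, 0.388%, 0.313% and 0.371% in GFP- libraries, lower in GFP+ cells in 4 of 4 fish, as a description without a test.

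Within fish, GFP+ exceeded GFP- in each of the 4 pairs for 9 of the 56, or 16.1%, beside 15.6% of all genes tested, and lay below GFP- in each pair for 14, or 25.0%, beside 18.8% of all genes. The GFP+ libraries lay wholly above the GFP- libraries for 3 of the 56, or 5.36%, beside 5.58% of all genes, and wholly below them for 8, or 14.3%, beside 8.96% of all genes.

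**Figure D1:**
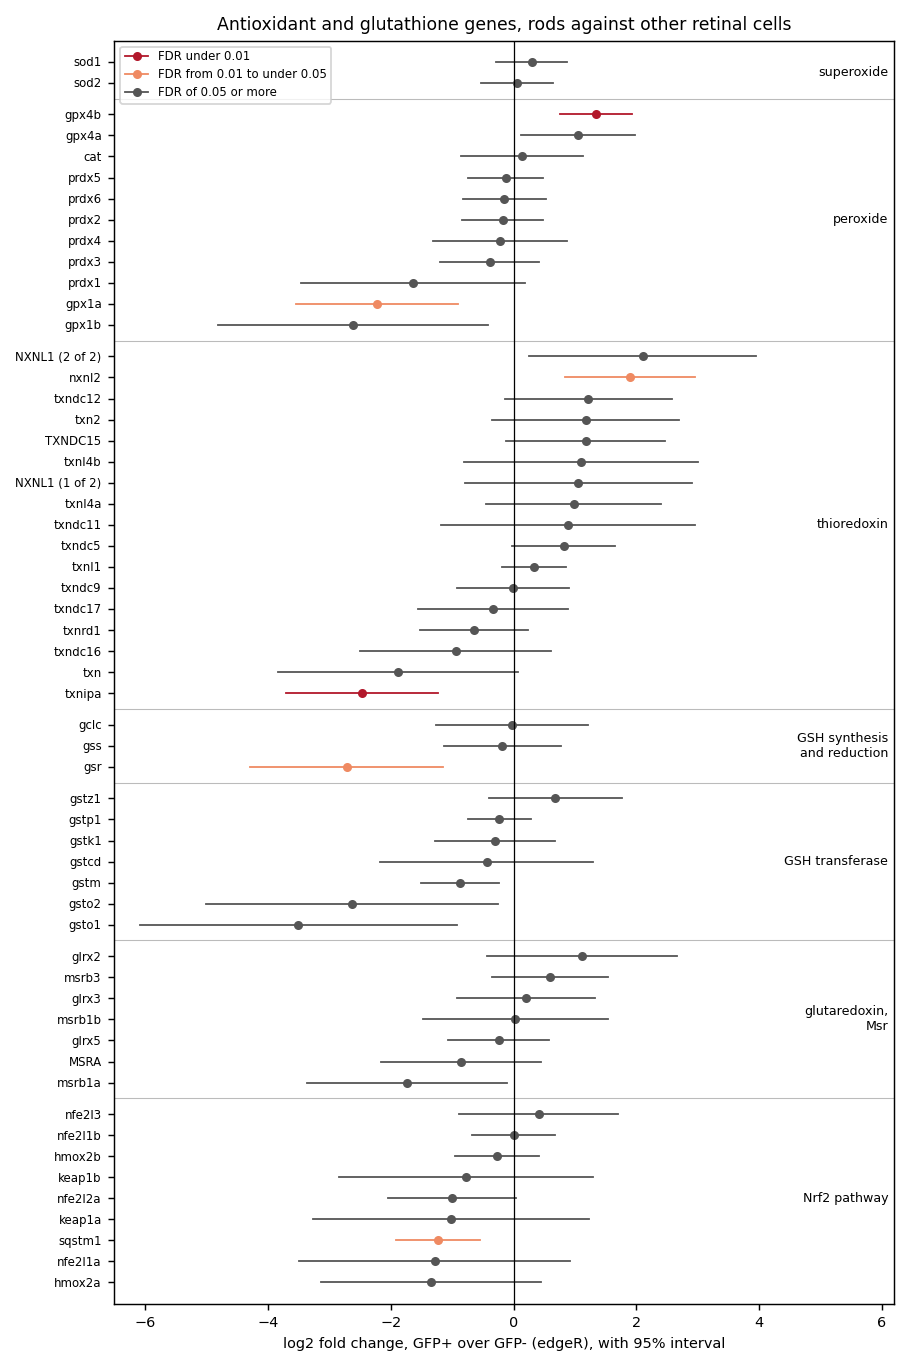
Log2 fold change, GFP+ over GFP-, of the 56 tested genes grouped by role, with points for the edgeR estimate and bars for the 95% interval. The points of gpx4b at 1.35 and txnipa at -2.47 carry the colour for an FDR under 0.01, and most other bars cross 0.

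The superoxide dismutases did not pass in either direction. The cytosolic enzyme gene sod1 had 51.5, 103, 76.5 and 130.3 CPM in GFP+ libraries of fish 1, 2, 2_2 and 5_2, against 55.4, 65.4, 63.6 and 101 CPM in the GFP- libraries, with a log2 fold change of 0.30 (95% interval -0.29 to 0.88, FDR 0.565). The mitochondrial enzyme gene sod2 had 101, 98.4, 50.7 and 119.8 CPM in GFP+ libraries and 114, 120.0, 45.9 and 80.9 CPM in GFP- libraries, with a log2 fold change of 0.05 (95% interval -0.53 to 0.63, FDR 0.939). The populations overlapped for both genes, and both intervals lay within 1 log2 unit of 0, which is a 2-fold difference.

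Of the 4 glutathione peroxidase genes, gpx4b was higher in GFP+ cells, and gpx1a passed an FDR of 0.05 only, in the other direction, while gpx4a and gpx1b did not pass. Glutathione peroxidase 4 reduces lipid hydroperoxides inside membranes, and is the enzyme that guards mammalian cells against ferroptosis, while glutathione peroxidase 1 reduces soluble peroxides. The gene gpx4b (ENSDARG00000076836, chromosome 2: 57368919 to 57382529 on Zv9, reverse strand) had 118, 155, 55.7 and 189 CPM in GFP+ libraries, against 57.7, 61.2, 19.8 and 64.1 CPM in GFP- libraries. GFP+ exceeded GFP- in each of the 4 fish, although the GFP+ level of fish 2_2 lay below 3 of the GFP- levels, so the populations overlapped. It rose by a log2 fold change of 1.35 ± 0.28 (SE, n = 4 pairs, FDR 0.00167). This call depended on which fish were kept and on the pairing, and it held without fish 2_2 (FDR 0.00488). The FDR was 0.0114 without fish 1, 0.0126 without fish 2, 0.0188 without fish 5_2 and 0.0905 with the pairing of the libraries left out.

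The paralogue gpx4a (ENSDARG00000068478, chromosome 22: 17813695 to 17835829) also had a positive fold change without passing the test. It had 46.2, 116, 1.43 and 15.1 CPM in GFP+ libraries and 36.9, 26.3, 1.04 and 9.06 CPM in GFP- libraries. Its GFP+ level was higher in 4 of 4 fish, but fish differed more than populations, and the log2 fold change was 1.05 ± 0.45 (SE, n = 4 pairs, FDR 0.132).

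Both gpx1 genes had negative fold changes. The gene gpx1a (ENSDARG00000018146, chromosome 11: 36889368 to 36997760) had 3.63, 3.88, 0.715 and 26.1 CPM in GFP+ libraries, against 17.0, 27.1, 30.2 and 27.8 CPM in GFP- libraries. It passed an FDR of 0.05 only, at a log2 fold change of -2.22 ± 0.64 (SE, n = 4 pairs, FDR 0.0185), and its GFP+ library of fish 5_2 stood at the level of the GFP- libraries while the other 3 lay far below. The FDR was 0.247 with the pairing left out, 0.0517 without scaling factors and 0.097, 0.109 and 0.0703 without fish 1, 2 and 2_2. It was 0.000893 with the likelihood ratio test of edgeR and 0.00612 with DESeq2. The gene gpx1b had 1.65, 0, 0.715 and 2.74 CPM in GFP+ libraries and 9.77, 7.36, 4.17 and 5.83 CPM in GFP- libraries. Its populations did not overlap, but the counts were few and the log2 fold change of -2.61 ± 1.06 (SE, n = 4 pairs) had an FDR of 0.108. A difference between the gpx4 and the gpx1 genes was not tested.

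**Figure D2:**
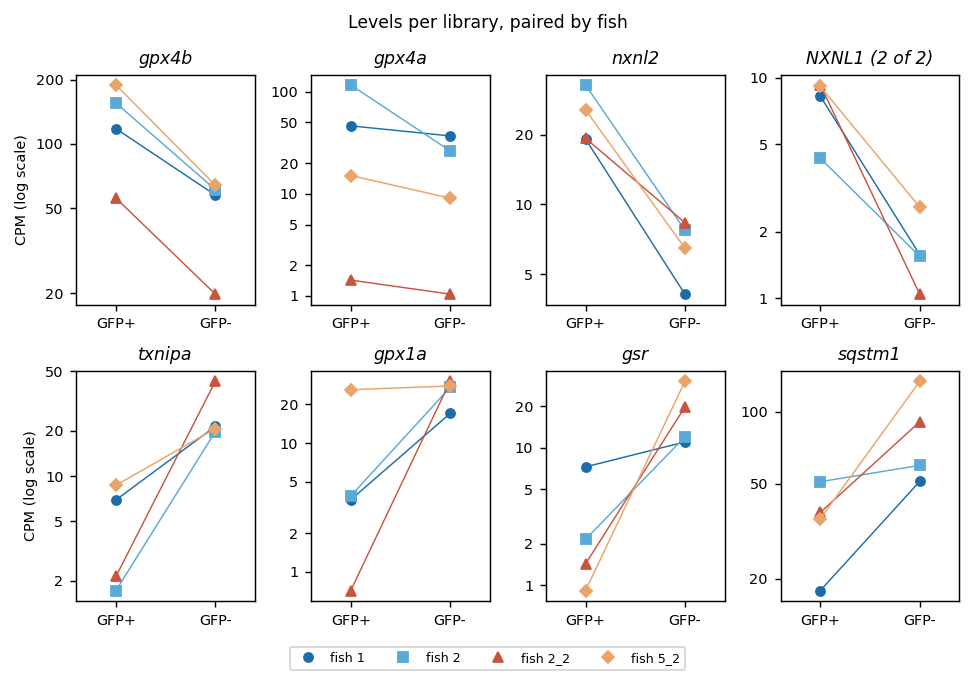
Level (CPM, log axis) of 8 genes in the GFP+ and GFP- library of each fish, with a line joining the libraries of 1 fish. The lines of gpx4b, gpx4a, nxnl2 and NXNL1 (2 of 2) fall towards GFP- in all 4 fish, those of txnipa, gpx1a, gsr and sqstm1 climb, and the gpx1a line of fish 5_2 is nearly flat at 26.1 and 27.8 CPM.

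Catalase and the peroxiredoxins gave no call. The catalase gene cat had 40.0, 23.3, 47.9 and 34.3 CPM in GFP+ libraries and 45.1, 49.2, 5.21 and 42.1 CPM in GFP- libraries, with a log2 fold change of 0.13 (95% interval -0.86 to 1.13, FDR 0.906). Its GFP- library of fish 2_2 was low, and in the other 3 fish GFP+ levels were the lower ones. All 6 peroxiredoxin genes had a negative fold change after TMM scaling, with log2 values of -1.64 to -0.13, but 4 of the 6 were positive without scaling factors. With TMM scaling, 5 of the 6 were positive without fish 2, 1 without fish 1 or fish 2_2, and 0 without fish 5_2. In edgeR, 0 of 6 passed an FDR of 0.05 or an unadjusted p of 0.05.

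The peroxiredoxins of the cytosol did not separate the populations. The gene prdx1 had 0, 2.16, 9.29 and 7.32 CPM in GFP+ libraries and 8.19, 6.97, 27.1 and 4.53 CPM in GFP- libraries (log2 fold change -1.64, 95% interval -3.47 to 0.18, FDR 0.247). The gene prdx2 had 85.2, 39.3, 48.6 and 79.6 CPM in GFP+ libraries and 101, 86.7, 41.7 and 56.3 CPM in GFP- libraries (log2 fold change -0.18, 95% interval -0.84 to 0.48, FDR 0.792). The gene prdx6, whose enzyme acts on phospholipid peroxides, had 66.0, 41.0, 42.9 and 41.6 CPM in GFP+ libraries and 75.6, 74.7, 41.7 and 29.8 CPM in GFP- libraries (log2 fold change -0.15, 95% interval -0.82 to 0.52, FDR 0.833). In prdx2 and prdx6, GFP+ was lower in fish 1 and 2 and higher in fish 2_2 and 5_2. For prdx6 the difference in fish 2_2 was slight, at 42.9 and 41.7 CPM. This order of fish was picked out after the values were seen, and the share of all genes with it was not counted. The genes cat, prdx1 and prdx4 did not follow it.

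The same order of fish was found for prdx3 and prdx5, whose enzymes work in mitochondria, prdx5 also elsewhere. The gene prdx3 had 39.6, 24.2, 59.3 and 90.1 CPM in GFP+ libraries and 81.6, 86.7, 33.4 and 60.9 CPM in GFP- libraries. The gene prdx5 had 156, 130.4, 115 and 254 CPM in GFP+ libraries and 263, 222, 97.0 and 144 CPM in GFP- libraries. Over all 4 fish the log2 fold changes were -0.39 for prdx3 (95% interval -1.20 to 0.42, FDR 0.591) and -0.13 for prdx5 (95% interval -0.74 to 0.49, FDR 0.846).

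Whether the GFP+ effect differed between the fish with the suffix, 2_2 and 5_2, and fish 1 and 2 was tested as an interaction term in edgeR. At an FDR under 0.05, 21 of 12564 genes passed, or 0.167%, and 0 of the 56 antioxidant and glutathione genes did. IDH2, from the NADPH supply list given below and named after its values were seen, was among the 21. Its effect was higher by 1.89 ± 0.40 on the log2 scale in the fish with the suffix (SE, FDR 0.0358). At an unadjusted p under 0.05, 4 of the 56 passed, beside 6.08% of all genes. For prdx3 the effect was higher by 2.12 ± 0.60 on the log2 scale in the fish with the suffix (SE, unadjusted p 0.00118, FDR 0.219), and for prdx5 by 1.31 ± 0.47 (unadjusted p 0.00806, FDR 0.503). The others of the 4 were nfe2l2a, given below, and txnl4a, named after its values were seen. For txnl4a the effect was higher by 3.10 ± 1.25 (unadjusted p 0.0182, FDR 0.656). The gene sod2 also had GFP+ below GFP- in fish 1 and 2 and above it in fish 2_2 and 5_2 (interaction unadjusted p 0.258). The fish with the suffix were also those with more rod marker RNA and with mitochondrial shares of 66.1% and 58.7% in the GFP- library, against 25.0% and 26.9% in fish 1 and 2. Of 4 pigment epithelium markers, rpe65a had 5.61, 3.88, 18.6 and 14.2 CPM in GFP+ libraries and 37.2, 33.3, 13.6 and 16.8 CPM in GFP- libraries (interaction unadjusted p 0.00534, FDR 0.407). The marker pmela had 0, 0, 7.86 and 8.23 CPM in GFP+ libraries and 11.3, 16.3, 0 and 0 CPM in GFP- libraries (interaction FDR 0.0269), while DCT and TYR were at 0 in every GFP+ library. The 4 markers summed to 5.61, 3.88, 26.4 and 22.4 CPM in GFP+ libraries and 49.1, 60.4, 13.6 and 16.8 CPM in GFP- libraries. These sums split by the suffix in both populations, in GFP+ libraries through rpe65a and pmela alone. The part of all these values in the prdx3 and prdx5 pattern was not tested.

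**Figure D3:**
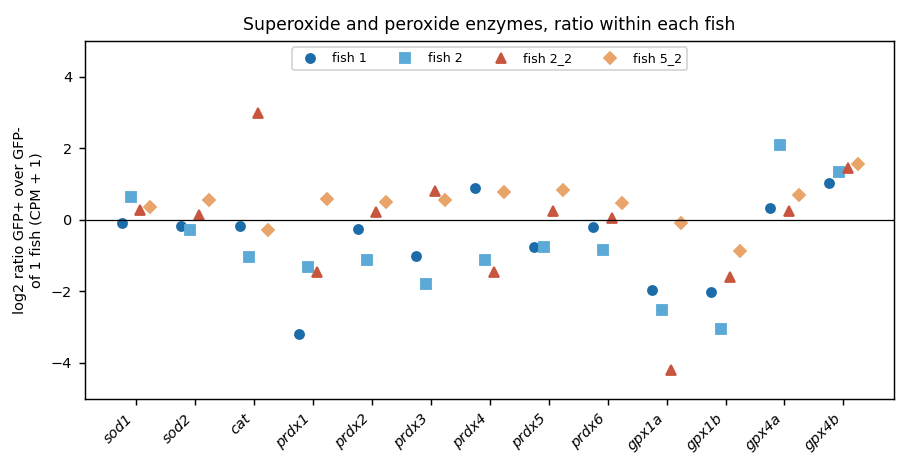
Log2 ratio, GFP+ over GFP- of the same fish (CPM + 1), for 13 genes of superoxide and peroxide removal, with 1 point per fish. The 4 points of gpx4b and of gpx4a lie above 0 and those of gpx1a and gpx1b below it. For sod2, prdx2, prdx3, prdx5 and prdx6, fish 1 and 2 lie below 0 and fish 2_2 and 5_2 above it, with the prdx6 point of fish 2_2 only at 0.04.

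In the thioredoxin group the thioredoxin inhibitor was lower in rods. The gene txnipa encodes a thioredoxin interacting protein, which in mammals binds thioredoxin, limits glucose uptake and is induced by glucose. It (ENSDARG00000036107, chromosome 19: 24974068 to 24977991) had 6.93, 1.73, 2.14 and 8.69 CPM in GFP+ libraries, against 21.4, 19.7, 42.7 and 20.7 CPM in GFP- libraries. All GFP+ levels lay below all GFP- levels, with the highest of them in the GFP- library of fish 2_2. It fell by a log2 fold change of -2.47 ± 0.60 (SE, n = 4 pairs, FDR 0.00571). The FDR was 0.0239, 0.0437, 0.0326 and 0.0139 without fish 1, 2, 2_2 and 5_2, 0.0318 with the pairing left out, and 0.0235 without scaling factors.

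Of the 59 genes, those for thioredoxins and their reductase did not pass. A further thioredoxin gene, listed as zgc:56493 and so not chosen by the symbols, was looked at after its values were seen, and was lower in GFP+ cells at an FDR of 0.05 only (log2 fold change -1.01 ± 0.28, SE, n = 4 pairs, FDR 0.0144). The gene txn had 4.29, 0, 0 and 10.1 CPM in GFP+ libraries and 6.93, 6.97, 1.04 and 22.7 CPM in GFP- libraries (log2 fold change -1.88, 95% interval -3.83 to 0.06, FDR 0.206). The gene txn2, for mitochondrial thioredoxin, had 9.24, 5.61, 12.9 and 8.69 CPM in GFP+ libraries and 5.67, 2.32, 7.30 and 1.94 CPM in GFP- libraries (log2 fold change 1.17, 95% interval -0.35 to 2.70, FDR 0.337). The level of txn2 was higher in the GFP+ library of 4 of 4 fish and that of txn lower in 4 of 4, with wide intervals for both. The gene txnrd1, for cytosolic thioredoxin reductase, had 21.5, 10.8, 17.9 and 25.1 CPM in GFP+ libraries and 30.2, 29.8, 28.1 and 25.2 CPM in GFP- libraries (log2 fold change -0.65, 95% interval -1.52 to 0.23, FDR 0.362). Its populations did not overlap, but the highest GFP+ and the lowest GFP- level, both in fish 5_2, were nearly equal. TXNRD2 (1 of 2), a mitochondrial thioredoxin reductase, had 0.715 to 5.28 CPM in GFP+ libraries and 1.55 to 7.30 CPM in GFP- libraries and was not tested.

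The 3 nucleoredoxin-like genes had positive fold changes, also without scaling factors. In mice, Nxnl1 and Nxnl2 give rise to rod-derived cone viability factors, thioredoxin-like proteins made by photoreceptors. The gene nxnl2 (ENSDARG00000003934, chromosome 10: 2608904 to 2612287) had 19.1, 32.8, 19.3 and 25.6 CPM in GFP+ libraries, against 4.10, 7.74, 8.34 and 6.47 CPM in GFP- libraries. The populations did not overlap, and the log2 fold change of 1.89 ± 0.51 (SE, n = 4 pairs, FDR 0.0128) passed an FDR of 0.05 only. Without fish 1, 2 or 5_2 the FDR was 0.0837, 0.0869 or 0.0675. It was 0.00401 with the likelihood ratio test of edgeR and 0.00536 with DESeq2. NXNL1 (2 of 2) had 8.25, 4.32, 9.29 and 9.14 CPM in GFP+ libraries and 1.58, 1.55, 1.04 and 2.59 CPM in GFP- libraries, also without overlap, at a log2 fold change of 2.1 ± 0.89 (SE, n = 4 pairs, FDR 0.126). NXNL1 (1 of 2) had 7.59, 0, 16.4 and 16.5 CPM in GFP+ libraries and 1.26, 1.55, 5.21 and 7.77 CPM in GFP- libraries, at a log2 fold change of 1.05 ± 0.89 (SE, n = 4 pairs, FDR 0.508), with fish 2 opposite to the others. The 2 NXNL1 copies are near each other on chromosome 1, at 58369119 to 58371941 and 58691592 to 58695586. How the counting treated reads shared by copies of a gene was not given in the sources used here.

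The remaining thioredoxin-domain and thioredoxin-like genes, 7 txndc and 3 txnl, are a loose group that includes proteins of the endoplasmic reticulum and of the spliceosome. Of these 10, 7 had a positive fold change (8 without scaling factors), 0 passed an FDR of 0.05 or an unadjusted p of 0.05, and the log2 values lay between -0.95 and 1.21.

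In glutathione synthesis and reduction, the reductase had the large difference. The gene gsr (ENSDARG00000019236, chromosome 14: 40349421 to 40369597) encodes glutathione reductase, which returns oxidised glutathione to its reduced form with NADPH. It had 22, 5, 2 and 2 counts in GFP+ libraries, against 35, 31, 19 and 47 counts in GFP- libraries, or 7.26, 2.16, 1.43 and 0.914 CPM in GFP+ libraries and 11.0, 12.0, 19.8 and 30.4 CPM in GFP- libraries. The populations did not overlap, and fish 1 had the smallest difference. The log2 fold change of -2.72 ± 0.76 (SE, n = 4 pairs, FDR 0.0157) passed an FDR of 0.05 only. The FDR was 0.0518 with the pairing left out, 0.0527 without fish 2_2 and 0.172 without fish 5_2. It was 0.000865 with the likelihood ratio test of edgeR and 0.00417 with DESeq2.

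The synthesis genes did not separate the populations. The gene gclc, for the catalytic subunit of the rate-limiting ligase, had 9.57, 21.2, 4.29 and 21.0 CPM in GFP+ libraries and 18.3, 6.58, 14.6 and 13.6 CPM in GFP- libraries (log2 fold change -0.03, 95% interval -1.26 to 1.21, FDR 0.986). The gene gclm, for its modifier subunit, had 1.73 to 5.03 CPM in GFP+ libraries and 2.08 to 3.48 CPM in GFP- libraries and was not tested. The gene gss, for glutathione synthetase, had 42.9, 8.63, 11.4 and 21.9 CPM in GFP+ libraries and 23.6, 14.7, 24.0 and 21.4 CPM in GFP- libraries (log2 fold change -0.18, 95% interval -1.14 to 0.77, FDR 0.859). For gclc and gss, fish went either way, and the intervals still allow a difference of 2-fold.

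Of the glutathione transferases, which couple glutathione to reactive compounds, 7 of 8 were tested, 6 with a negative fold change (4 without scaling factors), and 0 passed an FDR of 0.05. The gene gstp1, the pi class enzyme, had 593, 509.8, 504 and 548 CPM in GFP+ libraries, against 693, 593, 664 and 587 CPM in GFP- libraries. Its level was lower in the GFP+ library of 4 of 4 fish, but by little, with a log2 fold change of -0.23 (95% interval -0.75 to 0.28, FDR 0.615). A further 3 transferases without overlap between populations were chosen after their values were seen. The gene gstm had 38.6, 37.6, 35.7 and 37.5 CPM in GFP+ libraries and 67.7, 63.1, 88.6 and 59.6 CPM in GFP- libraries, at a log2 fold change of -0.88 ± 0.31 (SE, n = 4 pairs, FDR 0.0566). The omega class genes gsto1 and gsto2, neighbours on chromosome 13, were near the limit of the depth. The gene gsto1 had 5, 1, 0 and 0 counts in GFP+ libraries and 18, 10, 6 and 12 counts in GFP- libraries (FDR 0.0615), and gsto2 had 0 to 2.97 CPM in GFP+ libraries and 5.03 to 7.25 CPM in GFP- libraries (FDR 0.137).

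Glutaredoxins reduce protein-glutathione disulfides, and methionine sulfoxide reductases repair oxidised methionine. Of the 7 genes of this group 0 passed an FDR of 0.05, with log2 fold changes between -1.73 and 1.11. The gene msrb1a, whose mammalian counterpart encodes a selenoprotein, had 2.64, 2.16, 5.72 and 3.20 CPM in GFP+ libraries and 21.7, 12.0, 3.13 and 10.4 CPM in GFP- libraries (log2 fold change -1.73, 95% interval -3.37 to -0.10, FDR 0.159). It was lower in 3 of 4 fish, with fish 2_2 the other way. MSRA had 6.27, 17.7, 2.14 and 6.40 CPM in GFP+ libraries and 10.4, 13.9, 10.4 and 15.5 CPM in GFP- libraries (log2 fold change -0.85, 95% interval -2.15 to 0.44, FDR 0.427).

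In the Nrf2 pathway 7 of 9 genes had a negative fold change (6 without scaling factors), and 0 of 9 passed an FDR of 0.01. The gene sqstm1 (ENSDARG00000075014, chromosome 14: 14448389 to 14453802) encodes the autophagy receptor p62, which in mammals binds Keap1 and is itself an Nrf2 target. It had 17.8, 50.9, 37.9 and 35.7 CPM in GFP+ libraries, against 51.0, 59.6, 90.7 and 134 CPM in GFP- libraries. The highest GFP+ level, in fish 2, lay just under the lowest GFP- level, in fish 1. The log2 fold change of -1.23 ± 0.33 (SE, n = 4 pairs, FDR 0.0126) passed an FDR of 0.05 only. The FDR was 0.0838 without fish 1, 0.14 without fish 5_2, 0.087 with the pairing left out and 0.108 without scaling factors. It was 0.00346 with the likelihood ratio test of edgeR and 0.00844 with DESeq2.

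The transcription factor genes gave no call. The gene nfe2l2a, for Nrf2a, had 7.92, 6.47, 30 and 18.7 CPM in GFP+ libraries and 26.5, 33.7, 27.1 and 20.1 CPM in GFP- libraries (log2 fold change -1.0, 95% interval -2.04 to 0.03, FDR 0.205). The 2 low levels were the GFP+ libraries of fish 1 and 2, and nfe2l2a was among the 4 genes with an unadjusted interaction p under 0.05 (p 0.0294, FDR 0.718). The related nfe2l1b had 37.0, 53.1, 40.7 and 38.9 CPM in GFP+ libraries and 49.5, 46.5, 34.4 and 38.2 CPM in GFP- libraries (log2 fold change 0.00, 95% interval -0.68 to 0.68, FDR 0.997). Its interval lay within a 2-fold difference. The gene nfe2l1a had 0.432 to 3.96 CPM in GFP+ libraries and 1.16 to 6.47 CPM in GFP- libraries (FDR 0.498). The nfe2l2a paralogue nfe2l2b lies outside the annotated table and is given at the end, with a positive fold change (FDR 0.252).

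The repressor genes were near the limit of the depth. The gene keap1a had 6.27, 0.432, 0 and 4.57 CPM in GFP+ libraries and 20.8, 3.10, 0 and 1.94 CPM in GFP- libraries (FDR 0.616), and keap1b had 0.457 to 5.00 CPM in GFP+ libraries and 3.13 to 9.71 CPM in GFP- libraries (FDR 0.697). Heme oxygenase 2, the constitutive enzyme that breaks down heme, is encoded by hmox2a and hmox2b. The gene hmox2a had 0.66, 3.02, 2.86 and 4.57 CPM in GFP+ libraries and 2.52, 6.58, 8.34 and 9.71 CPM in GFP- libraries, lower in 4 of 4 fish, at a log2 fold change of -1.35 (95% interval -3.14 to 0.44, FDR 0.35). The copy hmox2b was more abundant in every library, with 49.9, 43.2, 67.2 and 21.5 CPM in GFP+ cells. Its GFP- levels were 52.9, 64.3, 48.0 and 40.1 CPM, above GFP+ in fish 1, 2 and 5_2 and below it in fish 2_2. For hmox2b the 95% interval of -0.95 to 0.42 (log2 fold change -0.27, FDR 0.676) lay within a 2-fold difference.

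Other genes that serve the same systems were read from the same edgeR fit. Of 82 symbols listed, 69 gene IDs were measured and 58 tested. At an FDR under 0.01, 2 of the 58 were higher in GFP+ cells and 4 lower, and at an FDR under 0.05, 6 were higher and 5 lower. Among all genes tested, 3.13% were higher and 5.68% lower at the first threshold, and 5.6% higher and 9.57% lower at the second. The shares of the 58 were close to these, except that the share higher at an FDR under 0.05 was the larger. Whether that share differs from the share of all genes was not tested. Their median log2 fold change was 0.04, beside -0.02 for all genes tested.

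NADPH supply was the list with 2 of 11 tested genes lower and 0 higher, both from the pentose phosphate pathway. TKT, a transketolase, had 276, 262, 233 and 227 CPM in GFP+ libraries, against 904, 785, 699.5 and 652 CPM in GFP- libraries, and fell by a log2 fold change of -1.60 ± 0.25 (SE, n = 4 pairs, FDR 9.3e-05). The gene pgd, for phosphogluconate dehydrogenase, which yields NADPH, had 44.6, 43.2, 6.43 and 34.7 CPM in GFP+ libraries, against 132, 129, 65.7 and 79.6 CPM in GFP- libraries, and fell by a log2 fold change of -1.80 ± 0.34 (SE, n = 4 pairs, FDR 0.000619). Neither gene overlapped between populations.

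In glutathione turnover and transport, 1 of 12 tested genes was higher and 1 lower. The gene slc1a4, for a transporter of neutral amino acids including cysteine, had 70.3, 31.1, 155 and 51.7 CPM in GFP+ libraries, against 18.3, 12.0, 38.6 and 16.8 CPM in GFP- libraries, and rose by a log2 fold change of 1.74 ± 0.33 (SE, n = 4 pairs, FDR 0.000579). OPLAH, for oxoprolinase, which returns glutamate from broken-down glutathione, had 12.2, 3.45, 0.715 and 4.57 CPM in GFP+ libraries, against 23.6, 25.6, 54.2 and 20.1 CPM in GFP- libraries, and fell by a log2 fold change of -2.59 ± 0.62 (SE, n = 4 pairs, FDR 0.00556). The level of slc1a4 was higher in 4 of 4 fish, though the GFP+ level of fish 2 lay under the GFP- level of fish 2_2.

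In the list drawn up here for partners and targets of Nrf2, 1 of 11 tested genes was higher and 0 lower. Whether Nrf2 acts on the genes of this list in the retina was not tested. Genes under Nrf2 may also stand in the other lists, so these counts give no direction for Nrf2 targets as a whole. The gene oxr1b, of the oxidation resistance family, had 300.1, 464, 354 and 417 CPM in GFP+ libraries, against 135, 178, 236 and 225 CPM in GFP- libraries, without overlap, and rose by a log2 fold change of 1.00 ± 0.26 (SE, n = 4 pairs, FDR 0.00871). Of the selenium and other redox genes, 0 of 17 tested were higher and 1 lower. The gene sepp1a encodes selenoprotein P, which carries selenium to cells and is needed for selenoenzymes such as the glutathione peroxidases. It had 289.9, 205, 865 and 601 CPM in GFP+ libraries, against 498, 802, 2525 and 2082 CPM in GFP- libraries, and fell by a log2 fold change of -1.52 ± 0.28 (SE, n = 4 pairs, FDR 0.000401). The GFP+ levels of fish 2_2 and 5_2 exceeded the GFP- level of fish 1, so that the populations overlapped, while the direction held in 4 of 4 fish. Among microsomal glutathione transferases and detoxification enzymes, 0 of 7 tested passed in either direction.

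**Figure D4:**
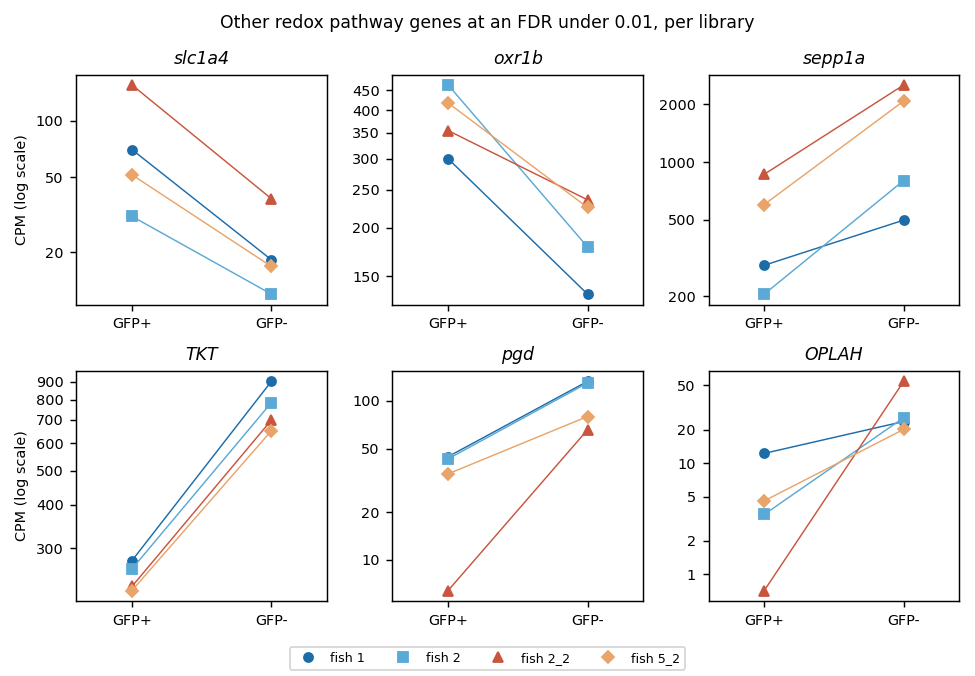
Level (CPM, log axis) of the 6 other redox genes with an FDR under 0.01, in the GFP+ and GFP- library of each fish, with a line joining the libraries of 1 fish. The lines of slc1a4 and oxr1b fall towards GFP- in all 4 fish and those of sepp1a, TKT, pgd and OPLAH climb, with the GFP+ levels of TKT between 227 and 276 CPM.

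The precision differed with the level. The 95% interval of the log2 fold change lay within 1 log2 unit of 0 for 10 of the 56 genes tested, of which 9 were among the 15 with a mean level of at least 30 CPM and 1 among the 41 below that level. In counts simulated for this comparison over 11849 genes, 88.4% of genes changed by 2 log2 units were recovered at or above 30 CPM and 18.9% below it. These rates are over the 181 changed genes that passed the filter. The simulated counts had the trended dispersion alone and no differences between fish, so the rates are not those of the real comparison.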

How the data were processed

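GFP+ and GFP- libraries of 4 fish were compared as 4 pairs, since both libraries of a pair came from the retinas of 1 fish. The authors amplified RNA with a NuGEN kit, sequenced it on an Illumina MiSeq, used Sickle for trimming and FLASH for overlapping mates, and aligned with the Burrows-Wheeler aligner to Zv9 (Ensembl 75), sorting with SAMtools. The deposited values are raw counts per gene made by HTSeq-count, with no normalization. Whether strand was used in counting was not given in the sources used here, so reads of overlapping genes on opposite strands cannot be told apart. HTSeq's counters for reads outside genes, 40.5% to 55.3% of the totals in GFP+ libraries and 34.4% to 41.0% in GFP- libraries, stayed out of library sizes and tests. The authors' annotated table gave symbols and coordinates; its comparison columns (log2 fold change, mean log CPM, likelihood ratio, p-value, FDR) and its 8 normalized columns were not used.

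The quasi-likelihood F test of edgeR 4.0.16 under R 4.3.3 was applied to the counts, blocking on fish, after filterByExpr and TMM scaling and with a trended dispersion, and p-values were Benjamini-Hochberg adjusted over 12564 genes; SE is the absolute log2 fold change over the root of F, and fold changes include edgeR's prior count. Same-fish libraries deviated together from their population means, with correlations of 0.323, 0.292, 0.333 and 0.214. Alternatives were no block, the likelihood ratio test, DESeq2 1.42.0, other scaling, other low-count filters, an FDR of 0.05 and each fish left out. The test was tried on simulated data. Plots used matplotlib 3.10.9 under Python 3.11.15.

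Full values are given for every gene of the 59 with an FDR under 0.01 and for a fixed list of core enzymes. Other pathway genes are named at an FDR under 0.01, and IDH2 for its interaction FDR. The genes and lists were chosen with earlier results of these data known. No library pair was identical (0 found), and no sequence is shown because no sequence table was used here.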

Additional observations from a re-analysis of the deposited data

Results flagged for a closer look

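In 118 groups of 4 libraries, 9 levels stood farther from the other 3 of their group than Dixon's criterion allows, and chance marks about 1 group in 20. In GFP+ cells, gstt1b had 7.26 CPM in fish 1 and was at 0 in the other 3 fish, and prdx6 had 66.0 CPM in fish 1, against 41.0 to 42.9 CPM in the others. Also in GFP+ cells, gpx1a had 26.1 CPM in fish 5_2, against 0.715 to 3.88 CPM in the others.

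In GFP- cells 5 of the 6 levels belonged to fish 2_2, the library with the fewest counts outside mitochondrial genes. It was low for cat at 5.21 CPM and for gpx4b at 19.8 CPM, and high for prdx1 at 27.1 CPM, prdx4 at 49.0 CPM and txnipa at 42.7 CPM. The sixth was keap1a at 20.8 CPM in fish 1, against 0 to 3.10 CPM in the others. Without fish 2_2, gpx4b still passed an FDR of 0.01 and txnipa did not (FDR 0.0326).

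HMOX1 (ENSDARG00000027529), for inducible heme oxygenase 1, lies outside the annotated table and so outside the 59 genes. It had 0, 0, 0 and 1 counts in GFP+ libraries, against 39, 92, 0 and 29 counts in GFP- libraries, a mean of 16.7 CPM in the GFP- libraries, and was lower in GFP+ cells in edgeR (FDR 0.000216). Microglia and leukocyte markers, and erythrocyte markers, were lower in GFP+ cells too, and their part in this difference was not tested. In the GFP- library of fish 2_2, HMOX1 and alas2 were at 0, and hbaa1 (ENSDARG00000079078) had 10.4 CPM, against 58.1 to 159 CPM in the other GFP- libraries. The remaining erythrocyte markers lay within or above the range of the other GFP- libraries. The second hbaa1 ID had 30.2 CPM (others 25.9 to 78.3) and si:ch211-5k11.6 had 18.8 CPM (others 1.55 to 32.1). For slc4a1a the level was 4.17 CPM (others 3.10 to 7.12) and for cahz 264 CPM (others 112 to 144). Microglia and leukocyte markers summed to 1729 CPM there, within their range of 1409 to 2596 CPM.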

How the results depend on the processing

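The 2 calls at an FDR under 0.01 changed with the processing. Genes of the 59 called higher numbered 1 in the paired analysis, 0 with no replicate block, 2 with the likelihood ratio test, DESeq2, no scaling factors, no low-count filter or an FDR of 0.05, and 0 to 2 with a fish left out (0 without fish 1, 2 or 5_2). Genes called lower numbered 1 in the paired analysis, 0 with no block or no scaling factors, 5 with the likelihood ratio test, 4 with DESeq2, no low-count filter, a CPM over 1 in at least 4 libraries or an FDR of 0.05, and 0 to 1 with a fish left out (0 without fish 1, 2_2 or 5_2, and without fish 2 the 1 gene was sqstm1, not txnipa). All genes called higher numbered 393, against 45 with no block and 180 to 352 with a fish left out. They numbered 571 with the likelihood ratio test and 568 with no scaling factors. All genes called lower numbered 714, against 142 with no block, 1112 with the likelihood ratio test, 372 with no scaling factors and 329 to 569 with a fish left out. Fits with no block or a fish left out tested fewer genes. The cause of the other changes was not tested.

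The direction of gpx4b held under 11 of 11 alternatives (log2 1.29 to 1.69, FDR 6.14e-05 to 0.0905) and that of txnipa under 11 of 11 (log2 -2.94 to -1.96, FDR 0.000222 to 0.0437). The same alternatives were applied to sqstm1, nxnl2, gsr and gpx1a after seeing the data, and their direction also held. Without scaling factors the median log2 fold change of all genes was 0.32, and 34 of the 56 genes were positive in place of 23, so the split by sign depends on scaling.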

Other observations

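A table of gene names gave 25 further gene IDs a symbol of these families. Of these, 3 stand in the annotated table under other symbols and 22 lie outside it. Of the 22, 16 had at most 10 counts in every library, and 6 of those 16 were at 0 in every library. The ID listed as zgc:56493 and named TXN by that table (ENSDARG00000031435), a thioredoxin gene, had 148, 108, 39.3 and 117 CPM in GFP+ libraries, against 209.5, 264, 131 and 179 CPM in GFP- libraries. It was lower in the GFP+ library of 4 of 4 fish, with an FDR of 0.0144. The ID listed as zgc:162356 and named gstr had 38.6, 60.9, 43.6 and 58.5 CPM in GFP+ libraries and 78.4, 49.6, 88.6 and 79.0 CPM in GFP- libraries (FDR 0.292). Both were chosen after their values were seen. Of the 22 IDs outside the annotated table, 3 were tested. They were HMOX1, given above, and gpx3 and nfe2l2b, both with a positive fold change. The gene gpx3 had 0.66, 0.863, 13.6 and 6.86 CPM in GFP+ libraries and 0.945 to 1.94 CPM in GFP- libraries (log2 fold change 0.96, FDR 0.674). The gene nfe2l2b had 19, 0, 6 and 12 counts in GFP+ libraries and 4, 0, 0 and 2 counts in GFP- libraries (log2 fold change 2.49, FDR 0.252).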
